A study of Mus musculus with 24 samples.

Results

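The genes described here mark the cells of the brain's small vessels. They are 10 genes taken by name from a list of known markers, of 24238 genes shared by the deposited tables, and all 10 were found. Cldn5, Pecam1, Flt1, Cdh5, Tek, Slco1a4, Abcb1a and Slc2a1 are the 8 genes of endothelial cells, and Pdgfrb and Rgs5 are the 2 genes of pericytes. All 10 had at least 1 FPKM (sequenced fragments scaled to transcript length and to the fragments mapped) as the mean of the 2 groups in every comparison, so none was lost to the filter on low values.

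Endothelial cells line the vessels, and in the brain they form the blood-brain barrier. They are sealed by tight junctions, carry transporters that pass nutrients or pump drugs out, and depend on VEGF, angiopoietin and Wnt signals from their surroundings. Pericytes wrap the capillaries, are recruited by platelet-derived growth factor from the endothelium, and are needed for the barrier to form and hold.

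RNA was sequenced from striatum of male mice on a C57BL/6J background, from 4 groups. R6/1 mice are a transgenic model of Huntington's disease, hemizygous for a transgene of human HTT exon 1 that carries an expanded CAG tract, and their wild-type (WT) littermates lack the transgene. RGFP109, an inhibitor of the histone deacetylases HDAC1 and HDAC3, was injected intraperitoneally at 30 mg/kg, 5 times a week for 3 weeks, and the other mice received vehicle. Treatment began at 11 to 14 weeks of age, and tissue was taken at 14 to 17 weeks, 18 h after the last injection. There were 5 libraries of WT-vehicle, 6 of R6/1-vehicle, 6 of WT-RGFP109 and 7 of R6/1-RGFP109, 24 in all. R6/1 mice carry a fragment of the human gene as a transgene in addition to their own alleles, which limits them as a model. The tables used hold 1 FPKM value for each gene and group, the authors' own estimate over the group's libraries. The spread between mice and the depth are therefore not known here, no difference below has a replicate check, and none was tested here. The authors' own test results for each pair of groups were not used.

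A gene is called past the fold where the log2 difference of the group values, with 0.05 FPKM added to each, was above 0.5 in size. Of all genes with a mean of at least 1 FPKM, 14.3% were past the fold between R6/1-vehicle and WT-vehicle, with 542 higher and 1404 lower (72.1% lower). The summed FPKM of the R6/1-vehicle group was lower than that of WT-vehicle by 0.13 on the log2 scale. When each group was rescaled to the same sum, the median of all genes moved from -0.01 to 0.12, and 47.8% of the calls were lower. Between R6/1-RGFP109 and WT-RGFP109 the share of lower calls went from 71.1% to 57.0% by the same step. Every difference below is on the deposited scale, where the median gene stood close to 0, and directions that turn on the rescaled values are named beside them.

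Genes of striatal neurons were read beside genes of neighbouring tissue. The dopamine receptor genes Drd1 and Drd2 lay between 26.1 and 60.3 FPKM and between 34.5 and 97.7 FPKM over the 4 groups. Slc17a7, in the list of neocortex, lay between 161 and 298 FPKM, and Ttr of choroid plexus between 30.4 and 1445 FPKM. How much neighbouring tissue the samples held was not tested. Of 9 genes of striatal projection neurons, 8 were past the fold and lower in R6/1-vehicle than in WT-vehicle, against 14.3% of all genes past it. Their median log2 difference was -1.36.

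The levels of the 10 genes spanned from 1.29 FPKM for Cdh5 to 33.8 FPKM for Slc2a1, as means of the 4 groups. FPKM is per length, so levels can be set beside each other. Slc2a1 stood far above the rest. Rgs5 and Cldn5 followed, with means of 11.6 and 11.0 FPKM, and their order was not fixed, since Cldn5 was above Rgs5 in both WT groups and below it in both R6/1 groups. Slco1a4 and Pdgfrb came next at 7.65 and 5.41 FPKM. Pecam1 and Abcb1a were neighbours at 3.17 and 3.00 FPKM and also changed places, with Pecam1 higher in the 3 groups other than R6/1-RGFP109. Flt1 lay between 2.32 and 2.77 FPKM, and Tek and Cdh5 were the lowest, at 1.46 and 1.29 FPKM. The genes for Cdh5, Flt1, Abcb1a and Slc2a1 overlap annotated noncoding genes, and Abcb1a and Slco1a4 have near-identical relatives (Abcb1b and other Slco1a genes), so that their reads could be shared. Overlaps and relatives were counted by the authors' pipeline in a way not given in the sources used here.

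**Figure D1:**
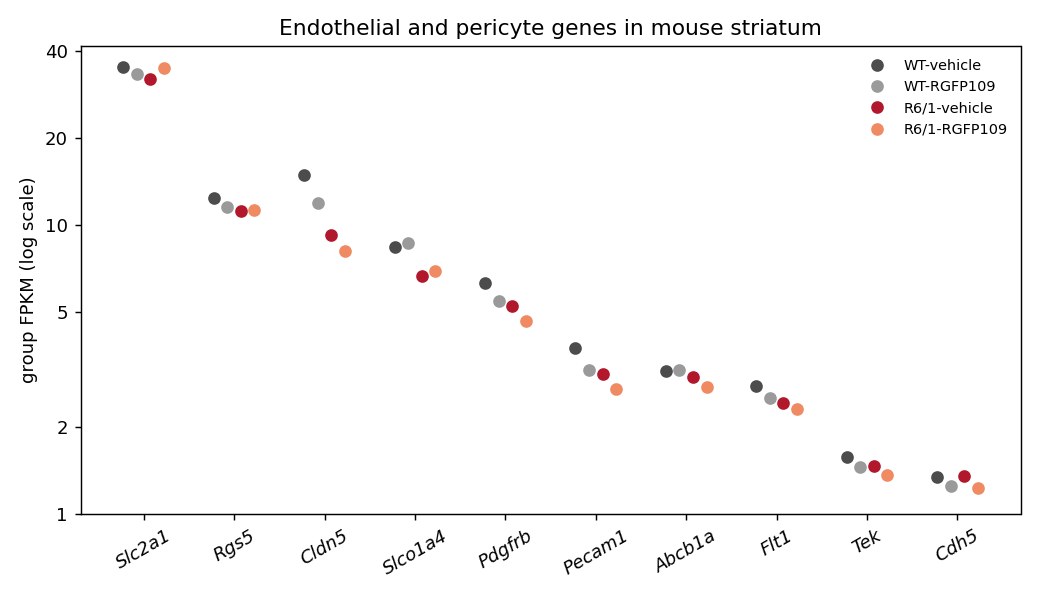
Group FPKM of the 10 genes on a log axis, ordered by mean level, with 1 point for each of the 4 groups and no error bars because each group has 1 deposited value. Cldn5 shows the widest gap, from 14.9 FPKM in WT-vehicle to 8.12 FPKM in R6/1-RGFP109, while the points of most other genes lie close together.

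For 7 of the 10 genes promoter sequence was at hand in RefSeq (build GRCm38.p6): Cldn5, Flt1, Tek, Slco1a4, Abcb1a, Slc2a1 and Rgs5. Cdh5, Pecam1 and Pdgfrb were not matched. The 250 bases before the annotated start are shown for 3 of the 7, because their levels ranged from the widest to a narrow difference between genotypes: Cldn5, with the largest difference, Slco1a4, with the next largest of the 7, and Tek, which stayed inside the interquartile range of all genes. The Cldn5 stretch lies at chr16:18776597-18776846 on the plus strand. The Slco1a4 stretch lies at chr6:141856221-141856470 on the minus strand, before a RefSeq start that is 49 bases from the start given in the tables. The Tek stretch lies at chr4:94739039-94739288 on the plus strand. Capitals mark, on either strand, an ETS motif (AGGAAG), a SOX motif (AACAAT), a GC box (GGGCGG) or a TATA box (TATAAA), which do not overlap in the stretches shown.
Cldn5: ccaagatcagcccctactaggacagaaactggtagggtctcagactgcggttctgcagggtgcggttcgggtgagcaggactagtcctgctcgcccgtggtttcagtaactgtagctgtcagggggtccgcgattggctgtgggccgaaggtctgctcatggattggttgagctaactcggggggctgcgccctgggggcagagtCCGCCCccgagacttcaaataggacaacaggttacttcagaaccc
Slco1a4: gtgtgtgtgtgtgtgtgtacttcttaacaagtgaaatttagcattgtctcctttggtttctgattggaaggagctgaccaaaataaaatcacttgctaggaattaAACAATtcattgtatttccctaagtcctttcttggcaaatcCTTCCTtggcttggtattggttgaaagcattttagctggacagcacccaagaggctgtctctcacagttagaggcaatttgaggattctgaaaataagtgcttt
Tek: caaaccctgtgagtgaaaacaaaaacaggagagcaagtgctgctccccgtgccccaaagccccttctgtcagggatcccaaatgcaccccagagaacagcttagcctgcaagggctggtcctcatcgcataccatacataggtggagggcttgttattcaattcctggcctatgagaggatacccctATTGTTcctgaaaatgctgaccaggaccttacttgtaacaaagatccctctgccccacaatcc
Cldn5 held 1 GC box, which 32.7% of all 32851 promoters of the same length hold, and Slco1a4 held 1 ETS and 1 SOX motif, held by 29.5% and 9.42% of all. Tek held 1 SOX motif. Of the 7, 3 held an ETS motif, 2 a SOX motif, 3 a GC box and 1 a TATA box, the last of which 12.4% of all promoters hold. Abcb1a is among the 3 with an ETS motif, but its RefSeq start is 93001 bases from the start given in the tables. Its stretch may therefore not be the promoter of the RNA measured. A match describes the letters in this window only.

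Cldn5 encodes claudin-5, the main sealing protein of the tight junctions of brain endothelium. Its level was 14.9 FPKM in WT-vehicle, 11.9 FPKM in WT-RGFP109, 9.25 FPKM in R6/1-vehicle and 8.12 FPKM in R6/1-RGFP109. Both R6/1 groups were thus below both WT groups, and within each genotype the treated group was the lower. Between R6/1-vehicle and WT-vehicle the log2 difference was -0.68, a level 37.7% lower, and 6.38% of all genes were as low or lower. Between R6/1-RGFP109 and WT-RGFP109 it was -0.55, or 31.9% lower, with 7.43% of all genes as low or lower, but it was -0.46 and no longer past the fold when each group was rescaled to the same sum. In tissue, fewer endothelial cells and less Cldn5 RNA in each cell cannot be told apart.

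Pecam1, which encodes the adhesion protein CD31 of endothelial contacts, followed the same order at smaller size. Its level was 3.76 FPKM in WT-vehicle, 3.16 FPKM in WT-RGFP109, 3.05 FPKM in R6/1-vehicle and 2.70 FPKM in R6/1-RGFP109. The log2 differences between genotypes were -0.30 under vehicle and -0.22 under RGFP109. Cdh5, which encodes VE-cadherin of the adherens junctions, differed little, with 1.34, 1.25, 1.35 and 1.24 FPKM in the same order of groups. Its genotype differences of 0.01 and -0.01 were near 0, and both were above 0 on the rescaled values, at 0.13 and 0.07. The ratio of Cldn5 to Cdh5 was 11.1 and 9.55 in the WT groups and 6.85 and 6.57 in the R6/1 groups, so the junction genes did not share a common size of difference. The ratio of Cldn5 to Pecam1 went from 3.95 and 3.78 to 3.04 and 3.01.

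Flt1 encodes VEGF receptor 1, which binds VEGF and limits its action. It had 2.77, 2.52, 2.41 and 2.32 FPKM in WT-vehicle, WT-RGFP109, R6/1-vehicle and R6/1-RGFP109. Tek, the angiopoietin receptor TIE2, had 1.57, 1.46, 1.46 and 1.36 FPKM in these groups. Both receptors were lower in R6/1 than in WT under either treatment, by log2 differences of -0.20 and -0.12 for Flt1 and of -0.10 and -0.09 for Tek, the first of which was 0.02 for Tek on the rescaled values. None of these left the interquartile range of all genes, which ran from -0.22 to 0.17 under vehicle and from -0.18 to 0.15 under RGFP109.

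The 3 transporters differed from each other in how far the genotypes lay apart. Slco1a4, a carrier of organic anions in the vessel wall, had 8.40 and 8.65 FPKM in WT-vehicle and WT-RGFP109, against 6.63 and 6.90 FPKM in R6/1-vehicle and R6/1-RGFP109. The genotype difference was nearly the same with vehicle (-0.34) and RGFP109 (-0.32), and RGFP109 moved the level little in either genotype. Abcb1a, the P-glycoprotein drug pump, had 3.12, 3.15, 2.99 and 2.74 FPKM in WT-vehicle, WT-RGFP109, R6/1-vehicle and R6/1-RGFP109, with log2 differences of -0.06 (0.07 on the rescaled values) and -0.20 between genotypes. Slc2a1, the glucose transporter GLUT1, which astrocytes also use, had 35.1, 33.1, 32.0 and 34.9 FPKM in the same groups. It was lower in R6/1 under vehicle (-0.13) and higher under RGFP109 (0.08). The ratio of the highest to the lowest group was 1.30 for Slco1a4 and 1.83 for Cldn5, and the median over the 10 genes was 1.18.

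Pdgfrb, the platelet-derived growth factor receptor of pericytes, had 6.29 FPKM in WT-vehicle, 5.47 FPKM in WT-RGFP109, 5.22 FPKM in R6/1-vehicle and 4.65 FPKM in R6/1-RGFP109. This is the order seen for Cldn5 and Pecam1, and the ratio of Pdgfrb to Pecam1 stayed between 1.67 and 1.73 over the 4 groups. Its genotype differences were -0.27 and -0.23. Rgs5, a regulator of G-protein signalling that marks pericytes, was nearly level, with 12.3, 11.5, 11.1 and 11.3 FPKM in the same order. Its genotype differences were -0.15 and -0.03, the latter 0.06 on the rescaled values. The ratio of Pdgfrb to Rgs5 was 0.51 in WT-vehicle and 0.413 in R6/1-RGFP109, so the 2 pericyte genes also differed in size.

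Set side by side, 9 of the 10 genes were lower in R6/1-vehicle than in WT-vehicle, where 50.9% of all genes were lower, and Cldn5 alone (1 of 10) was past the fold, against 14.3% of all genes. A share of 1 in 10 is near that background. The median log2 difference of the 10 was -0.17 beside -0.01 for all genes, and -0.15 without Cldn5. On the rescaled values 7 of the 10 were lower, where 33.6% of all genes were. Cldn5 lay 0.53 below the median of the other 9 on the log2 scale (difference -0.53). Under RGFP109, 9 of 10 were again lower in R6/1 than in WT, where 48.2% of all genes were lower, with Cldn5 past the fold against 12.3% of all genes. The median of the 10 was -0.16 beside 0.01 for all genes, and 7 of the 10 were lower on the rescaled values, where 34.5% of all genes were. The genotype comparisons under vehicle and under RGFP109 use different groups of mice.

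**Figure D2:**
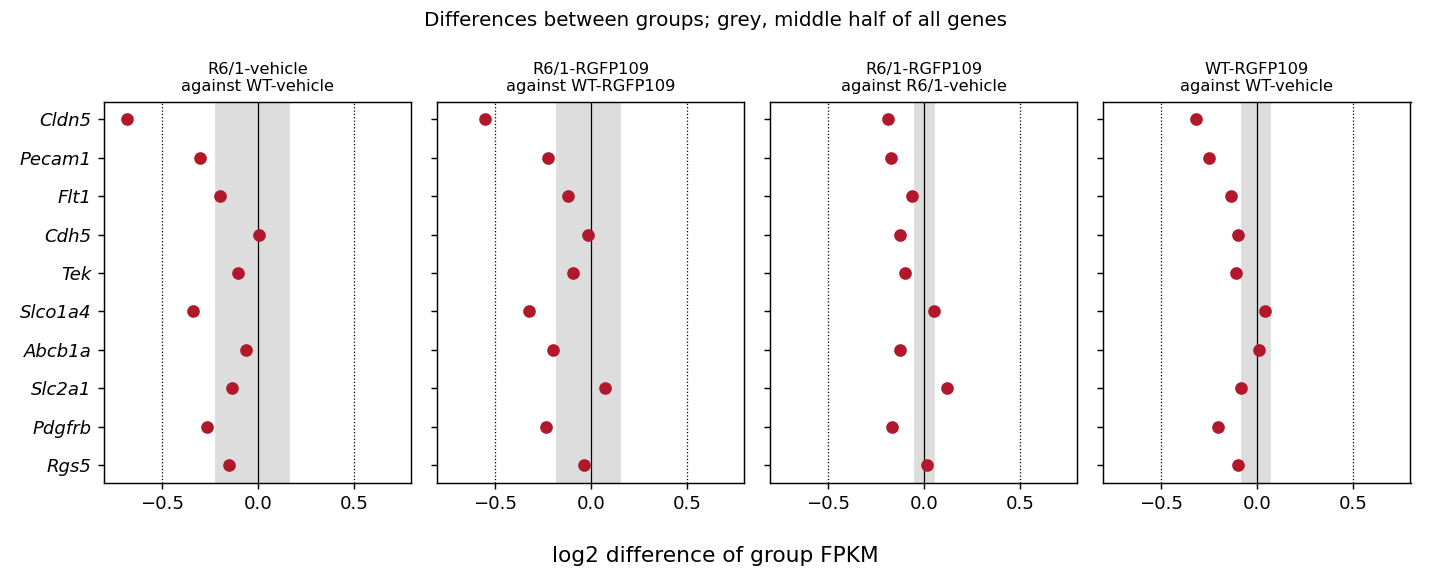
Log2 difference of group FPKM for each of the 10 genes in the 2 genotype and the 2 treatment comparisons, with dotted lines at -0.5 and 0.5 and a grey band for the interquartile range of all genes with at least 1 FPKM. Cldn5 passes the line in the genotype comparisons, at -0.68 and -0.55, and no gene passes it in the treatment comparisons, which are within -0.32 and 0.12.

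RGFP109 was compared with vehicle within each genotype. In R6/1 mice 0 of the 10 genes were past the fold, against 3% of all genes, and 7 of 10 were lower under RGFP109, where 48.1% of all genes were lower. The differences ran from -0.19 for Cldn5 to 0.12 for Slc2a1, with a median of -0.11 beside 0.003 for all genes. Slco1a4, Slc2a1 and Rgs5 were the 3 that were higher. In WT mice again 0 of 10 were past the fold, against 3.88% of all genes, and 8 of 10 were lower, where 51% of all genes were lower. Here the range was from -0.32 for Cldn5 to 0.04 for Slco1a4, and the median was -0.11. The interquartile range of all genes was narrow in these comparisons, from -0.05 to 0.05 in R6/1 and from -0.08 to 0.07 in WT, so that 7 of the 10 genes in R6/1 and 8 in WT lay below it. Cldn5, Pecam1, Flt1, Cdh5, Tek and Pdgfrb were below it in both genotypes. For Cldn5, 5.25% of all genes in R6/1 and 4.35% in WT were as low or lower. Rescaling left these counts of the 10 genes as they were, but in WT the share of all genes that were lower went from 51% to 38.1%. Among other cells, oligodendrocyte genes had a median of -0.37 between treatments in WT, with 8 of 8 lower and none past the fold, and of 0.18 in R6/1. Neocortex genes had a median of 0.44 in R6/1, with 3 of 8 higher past the fold, and of -0.11 in WT. The part of these cells in the treatment differences of the 10 genes was not tested.

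The effect of RGFP109 in R6/1 minus that in WT ranged from -0.14 for Abcb1a to 0.21 for Slc2a1, and its median over the 10 genes was 0.06 beside 0.01 for all genes. None of the 10 differed by more than 0.5, against 4.19% of all 13279 genes. Abcb1a, Slc2a1 and Rgs5 had effects of opposite sign in the genotypes. For Slc2a1 they were 0.12 in R6/1 mice and -0.09 in WT mice. These differences between effects were not tested.

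The remaining comparisons crossed genotype with treatment, and share their groups with those above. R6/1-RGFP109 was below WT-vehicle for 10 of 10 genes, where 49.7% of all genes were lower, and on the rescaled values for 8 of 10, with Cdh5 at 0.01 and Slc2a1 at 0.12, where 33.2% of all genes were lower. Cldn5 was past the fold at -0.87 (45.3% lower), against 14% of all genes past it, and the median of the 10 was -0.23. Pecam1 (-0.47) and Pdgfrb (-0.43) came next. R6/1-vehicle was below WT-RGFP109 for 8 of 10 genes, where 49.1% of all genes were lower, but for 2 of 10 on the rescaled values, Cldn5 and Slco1a4, where 34.8% of all genes were lower. None of the 10 passed the fold there, against 12.4% of all genes, and Slco1a4 (-0.38) and Cldn5 (-0.37) had the largest differences.

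Over the 4 groups, 7 of the 10 genes were highest in WT-vehicle, as were 31.0% of all genes, and 7 were lowest in R6/1-RGFP109, as were 21.4%. On the rescaled values these counts were 5 and 6 of 10, beside 17.7% and 15.7% of all genes. Cldn5, Pecam1, Flt1, Tek and Pdgfrb, 5 of 10, met both conditions, as did 12.3% of 13708 genes. After rescaling, 4 of 10 and 7.48% of all genes did. Of the 10 genes, Flt1 was closest to the mean pattern, at a Euclidean distance of 0.0419 over the 4 centred log2 levels, and Cldn5 was farthest at 0.448. Of 9961 genes outside the lists with at least 5 FPKM, 24 were closer to the mean pattern than Flt1. The closest 5 were Atp2b4 (0.0125), Dalrd3 (0.0168), Prkcdbp (0.0187), Fdps (0.0213) and Rnaseh1 (0.0213). With 4 values to a pattern, many genes follow it closely.

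Other genes of the vessel wall, and of signals that reach it, were read from 11 lists, of which 120 genes were in the tables. Some of them are made by other cells too, as named below, so the shares are not of vessel cells alone. Between R6/1-vehicle and WT-vehicle, 95 had at least 1 FPKM, and 1 was higher and 15 were lower past the fold, with a median of -0.18. These 16 are 16.8% of the 95, near the 14.3% of all genes. Under RGFP109, 1 was higher and 7 lower of 91 in R6/1 against WT, with a median of -0.17, and these are 8.79% beside 12.3% of all genes. On the rescaled values the counts were 4 higher and 8 lower under vehicle, and 2 higher and 4 lower under RGFP109, with medians of -0.06 and -0.08. The 8 were Cd34, Slc38a5, Slco1c1, Acvrl1, Wnt7a, Wnt7b, Mcam and Ackr1, and the 4 were Slco1c1, Acvrl1, Wnt7a and Ackr1, all of them also lower as deposited. Between treatments, the medians were -0.05 in R6/1, where Ifitm1 (-0.56) alone was past the fold, and -0.08 in WT, where Nrp2 (0.50) was higher and Dcn (-0.88), Acta2 (-0.60), Nid2 (-0.59) and Acvrl1 (-0.58) were lower.

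None of 9 other junction genes was past the fold between genotypes under either treatment, with medians of -0.08 and -0.03, which were 0.04 and 0.06 on the rescaled values. Ctnnd1, which encodes p120-catenin of the adherens junctions, had 16.0 FPKM in WT-vehicle and 17.6 FPKM in R6/1-vehicle. Tjp1, which encodes the scaffold ZO-1 that binds claudins, was level at 15.0 FPKM in both vehicle groups. Ocln, which encodes occludin, had 1.82 FPKM in WT-vehicle, 1.32 FPKM in WT-RGFP109, 1.41 FPKM in R6/1-vehicle and 1.35 FPKM in R6/1-RGFP109. Cldn5 thus had a wider genotype difference than any of these 9 genes, the lowest of which was at -0.46 under vehicle and -0.33 under RGFP109.

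Of 13 genes of endothelial identity, 4 were lower in R6/1-vehicle than in WT-vehicle past the fold and none higher, with a median of -0.36, where 14.3% of all genes were past the fold in either direction. They were Cd34 (12.9 to 7.10 FPKM, log2 difference -0.86), Sox18 (-0.52), Klf2 (-0.50) and Egfl7 (-0.50). On the rescaled values only 1 of the 13, Cd34, was past the fold, and the median was -0.23. Under RGFP109 none was past the fold, and Cd34 stood at -0.34. By any amount 13 of 13 were lower there, where 48.2% of all genes were lower. Their median was -0.16, and -0.065 on the rescaled values. Of 12 barrier transporters, Slc38a5 (-0.70) and Slco1c1 (21.7 to 13.7 FPKM, -0.66) were lower past the fold under vehicle, with a median of -0.16. The median under RGFP109 was -0.08, and 0.01 on the rescaled values. Slc38a5 stood at -0.79 under RGFP109, but its mean there was below 1 FPKM, so it was not among the 11 genes counted. Slco1c1, a thyroid hormone carrier related to Slco1a4, was lower under RGFP109 too, at -0.61. Astrocytes also carry it.

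Among 12 genes of VEGF and angiopoietin signalling, Acvrl1 had the widest difference of all vessel lists. This BMP receptor, known from endothelium, had 10.8 FPKM in WT-vehicle and 2.89 FPKM in R6/1-vehicle (-1.88), and 7.17 and 2.25 FPKM under RGFP109 (-1.65). The median of the 12 was -0.27 under vehicle, and the receptors Kdr, Tie1 and Eng had 1.19, 1.24 and 3.65 FPKM in WT-vehicle. Whether other cells contributed to the level of Acvrl1 was not tested. The ligand gene Vegfa was -0.37 and -0.34 between genotypes. Of 11 genes of Wnt signalling to the barrier, the ligands Wnt7a (-0.80 and -0.69) and Wnt7b (-0.66 and -0.57) were lower in R6/1 past the fold under vehicle and under RGFP109. Neurons and glia make these ligands, so they are not vessel genes by source.

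Of 12 further genes in the pericyte list, Ifitm1 (0.72) was higher, and Mcam (-1.05) and Kcnj8 (-0.53) were lower past the fold in R6/1-vehicle than in WT-vehicle. The list includes Pdgfb (-0.40), for the platelet-derived growth factor that comes from the endothelium. In all, 10 of the 12 were lower by any amount, where 50.9% of all genes were lower. Their median was -0.14, and -0.01 on the rescaled values. Mcam, an adhesion molecule of mural and endothelial cells, had 16.5 and 7.94 FPKM under vehicle and 12.3 and 8.57 FPKM under RGFP109, and was past the fold under both. Vtn, the most abundant of the list, lay between 38.3 and 45.7 FPKM, with genotype differences of -0.09 under vehicle and -0.19 under RGFP109. Among the smaller lists, Dcn (-0.51) of perivascular fibroblasts and Nid2 (-0.54) and Lama5 (-0.53) of the basement membrane were lower past the fold under vehicle. Nid2 overlaps the gene Rtraf, so that their reads could be shared. Acta2 of arterial smooth muscle was higher (0.59), and Cav1 of caveolae lower (-0.52), past the fold in R6/1 under RGFP109. Ackr1, in the list of activated endothelium, was lower under both treatments (-0.77 and -0.76), but it overlaps the gene Cadm3, and their reads may not be told apart.

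**Figure D3:**
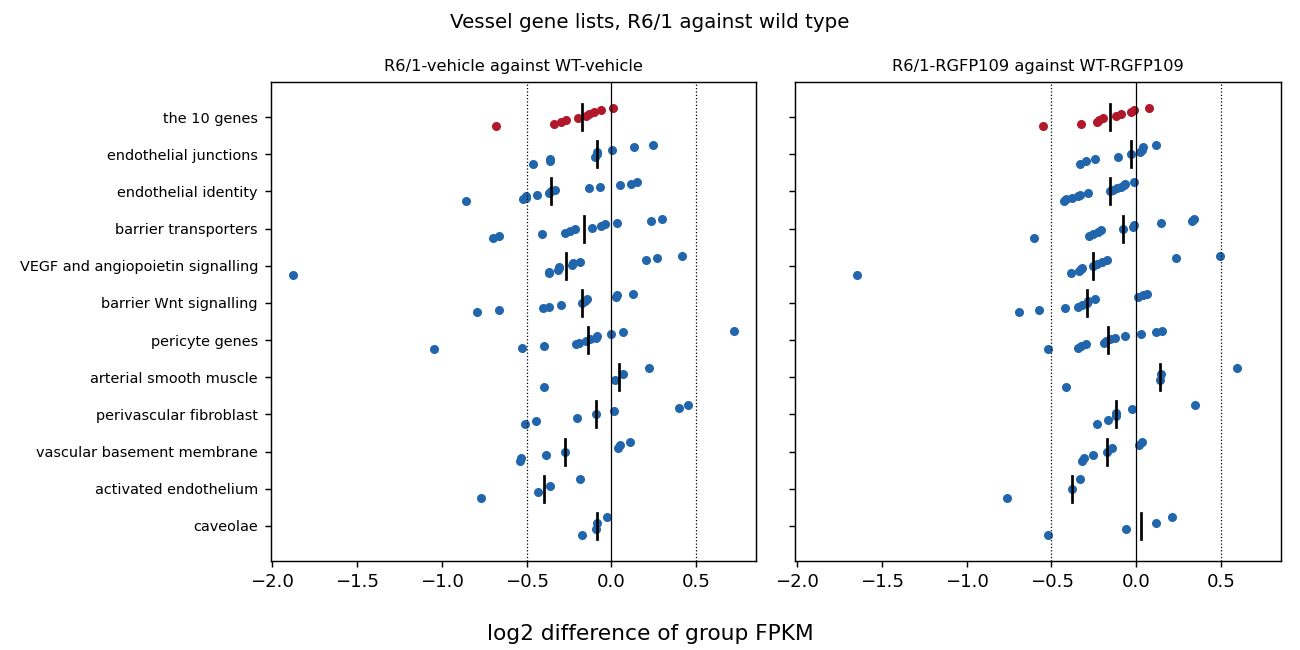
Log2 difference of group FPKM in R6/1 against WT under vehicle and under RGFP109, with 1 point for each gene of at least 1 FPKM, a black bar for each list's median and dotted lines at -0.5 and 0.5. The medians of the 10 genes are -0.17 and -0.16, and Acvrl1, at -1.88 and -1.65, stands farthest to the left.

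Markers of other cells also moved with the groups. The summed level of the 10 genes was 89.6 FPKM in WT-vehicle, 82.2 FPKM in WT-RGFP109, 75.5 FPKM in R6/1-vehicle and 76.2 FPKM in R6/1-RGFP109. Red blood cell genes, which travel inside the vessels, summed to 49.8 and 51.7 FPKM in the WT groups and to 22.9 and 17.8 FPKM in the R6/1 groups. All 3 of them with at least 1 FPKM, Hbb-bt (-1.28), Alas2 (-1.14) and Hba-a2 (-0.98), were past the fold between the vehicle groups. Of all genes, 14.3% were past it there. Choroid plexus genes had another order, with sums of 1499, 638, 325 and 41.2 FPKM in WT-vehicle, R6/1-vehicle, WT-RGFP109 and R6/1-RGFP109, most of it Ttr. Of 10 such genes, 9 in R6/1-vehicle and 10 in WT-RGFP109 were lower than in WT-vehicle past the fold. In these comparisons 14.3% and 3.88% of all genes were past it in either direction. The choroid plexus has vessels of its own, and its part in the levels of the 10 genes was not tested.

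Astrocyte genes, whose end-feet cover the vessels, had a median of -0.36 between the vehicle groups, with 2 of 8 lower past the fold, and microglial genes had -0.25, with 0 of 8. Oligodendrocyte genes had a median of -0.81, with 6 of 8 lower past the fold, and those of neocortex -0.69, also with 6 of 8. Of all genes, 14.3% were past the fold there in either direction. On the rescaled values the lower calls were 1 of 8 astrocyte, 0 of 8 microglial, 5 of 8 oligodendrocyte and 5 of 8 neocortex genes. Between the RGFP109 groups the medians of oligodendrocyte and neocortex genes were -0.25 and -0.14, beside -0.16 for the 10 genes. Past the fold were 0 of 8 and 1 of 8, against 12.3% of all genes. Astrocyte and microglial genes had medians of -0.43 and -0.24 there, with 3 of 8 and 0 of 8 past the fold. Pan-neuronal genes had a median of -0.19 between the vehicle groups, next to the -0.17 of the 10 vessel genes. Between the RGFP109 groups it was -0.28, beside -0.16 for the 10. Between the vehicle groups, all 8 astrocyte, all 8 microglial and all 8 oligodendrocyte genes were lower by any amount. So were 7 of 8 neocortex and 6 of 7 pan-neuronal genes, beside 9 of the 10 vessel genes and 50.9% of all genes. None of these markers was listed at 0 in any group, and the part of their cells in the differences of the 10 genes was not tested.

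**Figure D4:**
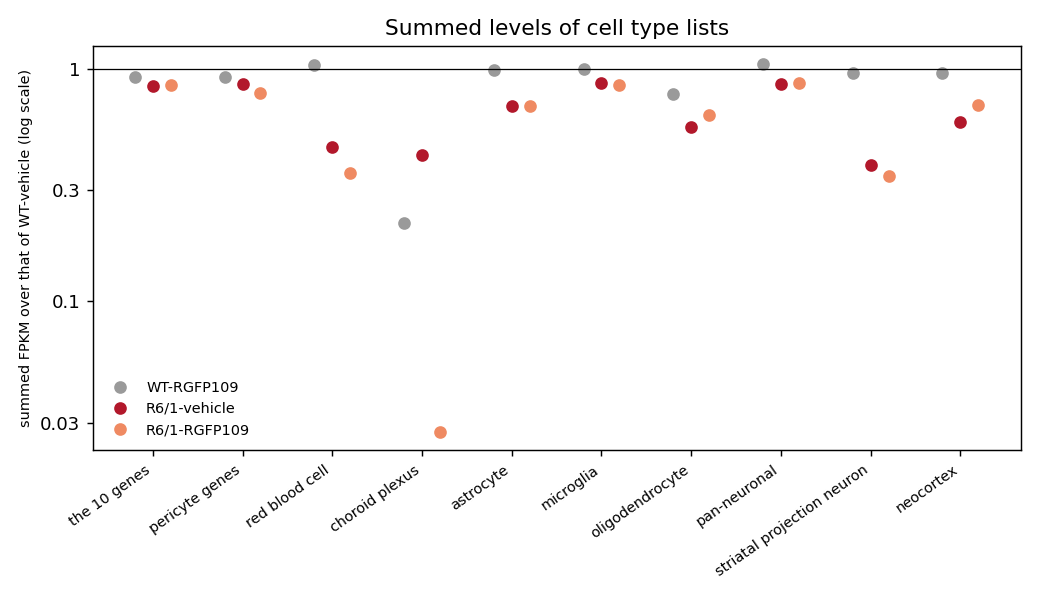
Summed FPKM of each list in 3 groups, divided by that of WT-vehicle, on a log axis with a line at 1. The 10 genes and the pericyte list lie below the line in all 3 groups, no nearer to it than microglial and pan-neuronal genes. Choroid plexus genes spread widest over the groups, and red blood cell genes are separated by genotype.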

How the data were processed

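Striatal RNA from 24 mice was sequenced as 51 bp single-end reads, in 2 pools of 12 libraries. The submitters' processing notes name STAR 2.5.0b and Cufflinks 2.2.1, and Cuffdiff was run for each pair of groups; coordinates in the tables are of the mm10 build. The deposited FPKM values were made by the authors as 1 value for each gene and group, so groups of 5 to 7 libraries carry no spread. The authors' fold changes, test statistics, p-values and q-values stand beside them and were not used. Rows that merge several genes were left out, leaving 24238 genes.

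The 6 tables hold the same 4 groups up to a scaling factor of 0.965 to 1.034. Differences were taken within a pair's own table on the log2(FPKM + 0.05) scale, which understates those of low genes, and levels were joined over the tables. Genes with a mean of at least 1 FPKM in a pair are the background. The scripts ran in Python 3.11.15 with pandas 2.3.3 and numpy 2.4.6, figures were drawn with matplotlib 3.10.9, and the steps were tested on simulated data.

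The 10 genes and all lists were chosen with earlier results of these data known. From each further list, genes past the fold were named, at most 4, the largest first, or else abundant ones, and the 5 closest patterns came from genes of at least 5 FPKM. Ocln, Vegfa, Vtn, Drd1 and Drd2 were added after their values were seen. Alternatives were another pseudocount, centring, rescaling, joined levels, other fold limits and other filters. The precision set by depth is unknown.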

Additional observations from a re-analysis of the deposited data

How the results depend on the processing

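No paired analysis was possible because the tables hold 1 value for each group and no column for a library, and leaving out each library was not run for the same reason. Of the 36 recomputed counts of the 10 genes past the fold, 27 were within 1.5 times the original, and 22 of the 24 medians moved by at most 0.1 on the log2 scale. With a limit of 0.25, the count was 4 for R6/1-vehicle against WT-vehicle, 2 for R6/1-RGFP109 against WT-RGFP109, 1 for WT-RGFP109 against WT-vehicle, 5 for R6/1-RGFP109 against WT-vehicle and 2 for R6/1-vehicle against WT-RGFP109. With a limit of 1 it was 0 in the 3 comparisons where Cldn5 had been past the fold. Rescaling each group to the same sum gave a count of 0 for R6/1-RGFP109 against WT-RGFP109, and moved the median to -0.043 for R6/1-vehicle against WT-vehicle and to -0.11 for R6/1-RGFP109 against WT-vehicle. This follows from its construction, since it subtracts the log2 ratio of the summed FPKM from every difference. It changed the sign of 12 of 60 values of single genes, and a pseudocount of 1 FPKM, centring and joined levels changed 0. With no filter on FPKM, 6.1% of all genes were past the fold in R6/1-RGFP109 against R6/1-vehicle and 8.52% in WT-RGFP109 against WT-vehicle.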
